A study of Homo sapiens with 9 samples.

Results

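The transcripts of 60 heat shock protein and DNAJ rows were compared in MCF10A cells with a knockout of XRCC1 or APE1. Members were all rows of the authors' deposited tables whose symbol starts with HSPA, HSPB, HSPD, HSPE, HSPH, HSP90, or with DNAJA, DNAJB or DNAJC and a number, other than HSPA5. They make up 60 of 13052 genes, 23 with an HSP symbol and 37 with a DNAJ symbol. MCF10A is a line of human mammary epithelial cells that are not transformed. Poly(A) RNA was sequenced from 3 libraries of XRCC1-KO cells (genotype XRCC1-knockout), 3 of APE1-KO cells (genotype APE1-knockout) and 3 of Control-KO cells (labelled WT for genotype). Control-KO cells express Cas9, and both knockouts were derived from them, per the series' design text. All groups grew in one medium with horse serum, epidermal growth factor, cholera toxin, insulin and hydrocortisone, the last a glucocorticoid. Whether a knockout is a single clone or a pool is not given in the sources used here. Nor is it given whether each library had its own culture, and each p-value therefore reflects the spread among the sequenced libraries, which may be technical.

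Chaperones bind unfolded or newly made proteins and help them fold, assemble or reach a protease. HSP70 proteins (HSPA genes) bind and release clients in an ATP cycle; J-domain proteins (DNAJ genes) bring clients and trigger ATP hydrolysis, and exchange factors such as the HSP110 proteins reset the cycle. HSP90 acts on later folding intermediates, the HSP60 and HSP10 chaperonin encloses proteins in mitochondria, and small heat shock proteins hold unfolded proteins without ATP. Heat and other proteotoxic stress raise a subset of these genes through the transcription factor HSF1, which binds heat shock elements, inverted repeats of GAA, in their promoters. Many other members are made at all times.

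Promoters are shown for members that differ in the element they carry, because fold changes are set against that element further on. RefSeq windows from 250 bases before to 50 after a gene's start (GRCh38.p14) were found for 55 of the 60 members by symbol; DNAJC1, DNAJC22, DNAJC24, HSPA14 and HSPB11 had no entry. A heat shock element of 3 units was searched as GAANNTTCNNGAA and its reverse complement TTCNNGAANNTTC, both strands together. It stood in at least one window of 7 of the 55 members, or 12.7%, against 0.608% of 27305 genes with a window. These 7 were HSPA8, HSP90AA1, HSP90AB1, HSPD1, HSPA6, DNAJA1 and DNAJB6. A pair of units (GAANNTTC or TTCNNGAA, which each 3-unit match also contains) stood in 17 of the 55, or 30.9%, against 16.2% of genes, and added HSPA1A, HSPA1B, HSPB1 and DNAJB1 among others. Capitals mark the 3-unit matches in the windows of HSPA8 (chr11:123062087-123062386, minus strand), the constitutive cytosolic HSP70, HSP90AA1 (chr14:102086995-102087294, minus strand), the inducible HSP90, HSPD1 (chr2:197499791-197500090, minus strand), the mitochondrial HSP60, and DNAJB6 (chr7:157336754-157337053, plus strand), a suppressor of protein aggregation. For HSP90B1 (chr12:103930160-103930459, plus strand), the HSP90 of the endoplasmic reticulum, capitals mark its pair of ER stress elements, searched as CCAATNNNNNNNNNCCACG and its reverse complement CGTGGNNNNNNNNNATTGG. That element stood in 25 of the 27305 genes, 0.0916%, and in no other member. The promoters read 5′ to 3′ on the gene's strand.
HSPA8: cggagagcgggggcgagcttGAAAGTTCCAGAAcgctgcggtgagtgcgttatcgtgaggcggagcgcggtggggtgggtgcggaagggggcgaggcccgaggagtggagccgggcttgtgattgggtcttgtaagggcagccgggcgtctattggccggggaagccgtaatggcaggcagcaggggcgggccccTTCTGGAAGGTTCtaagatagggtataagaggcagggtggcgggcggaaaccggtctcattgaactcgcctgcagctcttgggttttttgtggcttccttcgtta
HSP90AA1: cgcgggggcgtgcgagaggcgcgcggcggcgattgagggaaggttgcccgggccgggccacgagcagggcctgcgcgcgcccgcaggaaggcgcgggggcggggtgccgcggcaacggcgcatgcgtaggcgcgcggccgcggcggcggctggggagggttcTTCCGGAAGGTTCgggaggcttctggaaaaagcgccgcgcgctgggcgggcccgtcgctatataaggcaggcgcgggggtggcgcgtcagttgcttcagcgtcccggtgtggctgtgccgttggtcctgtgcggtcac
HSPD1: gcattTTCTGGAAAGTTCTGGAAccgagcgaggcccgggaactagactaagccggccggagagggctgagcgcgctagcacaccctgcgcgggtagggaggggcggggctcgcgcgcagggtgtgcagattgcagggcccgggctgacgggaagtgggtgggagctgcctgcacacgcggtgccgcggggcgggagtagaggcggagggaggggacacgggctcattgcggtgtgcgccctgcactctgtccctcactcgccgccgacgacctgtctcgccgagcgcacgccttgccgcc
DNAJB6: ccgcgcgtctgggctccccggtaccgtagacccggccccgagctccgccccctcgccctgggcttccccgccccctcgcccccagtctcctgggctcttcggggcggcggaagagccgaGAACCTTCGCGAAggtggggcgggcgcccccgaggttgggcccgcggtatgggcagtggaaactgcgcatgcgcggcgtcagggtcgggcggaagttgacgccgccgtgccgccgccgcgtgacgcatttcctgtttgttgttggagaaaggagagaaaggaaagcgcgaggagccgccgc
HSP90B1: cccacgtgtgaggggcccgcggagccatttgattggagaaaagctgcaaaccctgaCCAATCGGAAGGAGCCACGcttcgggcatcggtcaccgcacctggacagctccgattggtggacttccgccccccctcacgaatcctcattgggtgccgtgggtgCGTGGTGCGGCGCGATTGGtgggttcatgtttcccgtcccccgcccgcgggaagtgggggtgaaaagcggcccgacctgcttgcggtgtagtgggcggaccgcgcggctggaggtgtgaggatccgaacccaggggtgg
In HSPD1 the capitals cover a pair of overlapping matches, and in HSPA8 they mark a pair of separate ones. HSPD1 and HSPE1 are transcribed away from each other, with RefSeq starts 105 and 539 bases apart, as HSPD1 has a pair of listed starts. A match is a run of letters, not a shown binding site.

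The authors' deposited tables give each comparison of a knockout with Control-KO as a log2 fold change with its F test, and a single mean log2 CPM (library-scaled counts) per gene. Values per library were not analysed here. Hence no value below has a replicate SD, and each 95% interval comes from a standard error recovered from the deposited fold change and F. The knockout label was checked on the targets. APEX1, which encodes APE1, stood at -1.5 in the authors' deposited table for APE1-KO (interval -1.67 to -1.33, deposited adjusted p = 7.17e-08) and at 0.02 in the table for XRCC1-KO. XRCC1 stood at 0.14 in the authors' deposited table for XRCC1-KO (interval -0.10 to 0.37), so its mRNA checks nothing about the libraries labelled XRCC1-KO, and each direction given for them rests on that label. All 10 basal mammary and all 4 epithelial marker genes were measured, at a mean log2 CPM from 6.34 to 12.2. Of markers of other cells 2 of 7 fibroblast, 2 of 5 leukocyte, 1 of 4 endothelial and 3 of 4 neuronal genes were in the tables, while COL3A1, PTPRC, PECAM1 and RBFOX3 were not. The mean log2 CPM was 4.08 for COL1A1 and 2.50 for DCN of fibroblasts, 1.61 for CD14 and 0.25 for LYZ of leukocytes, and -0.39 for KDR of endothelium. Of the neuronal genes TUBB3 was at 8.28, MAP2 at 1.77 and SYT1 at 0.25 on that scale. In the authors' deposited table for APE1-KO, SYT1 had a log2 fold change of 1.21 (F test p = 0.0103, deposited adjusted p = 1) and MAP2 of 0.68; the part of such genes in the results was not tested.

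No chaperone transcript passed an adjusted p of 0.05 in either knockout, and the medians of the members lay close to 0. In XRCC1-KO cells the 60 members had a median log2 fold change of 0.02, or 1.02-fold, with quartiles of -0.05 and 0.10; the median of all 13052 genes was 0.00. In APE1-KO cells the members' median was 0.00, with quartiles of -0.05 and 0.03. The smallest adjusted p of a member was 0.76 in the authors' deposited table for XRCC1-KO and 1 in the table for APE1-KO (F test with Benjamini-Hochberg adjustment over 13052 genes). Over all genes 0% passed in XRCC1-KO and 0.00766% (APEX1 alone) in APE1-KO.

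At an unadjusted p under 0.05, 2 members were above 0 in XRCC1-KO cells (DNAJB2 and HSPA12A), none below. That is 3.33% of the members, where 5.96% of all genes passed the same threshold, 3.26% above 0 and 2.7% below. In APE1-KO cells 1 member, DNAJC25, passed in the same way, or 1.67%, against 1.45% of all genes, 0.774% above 0 and 0.674% below. A log2 fold change above 0 was found for 36 of 60 members in XRCC1-KO, 60.0%, against 49.7% of all genes, and for 27 of 60 in APE1-KO, 45.0%, against 49.5%. The 95% interval lay wholly within 0.5 on either side of 0, that is within 1.41-fold, for 43 members in XRCC1-KO (71.7%, against 68.2% of all genes) and for 46 in APE1-KO (76.7%, against 73.5%). All of these members were among the 57 at a mean log2 CPM of at least 1. Of 11317 genes at that level, 8901 in XRCC1-KO and 9588 in APE1-KO had such an interval. That is a larger share than that of the 57 members in both knockouts. For the members within that bound, each interval taken singly does not reach a change of that size. This holds only against the spread among these libraries, which may be technical. Beyond 0.25 on either side stood 4 members in XRCC1-KO (HSPB1, DNAJB2, HSPA1L and DNAJC27; 6.67%, against 16.2% of all genes) and 3 in APE1-KO (DNAJC25, DNAJC27 and DNAJC25-GNG10; 5.00%, against 10.2%). Of the 11317 genes at a mean log2 CPM of at least 1, 1087 in XRCC1-KO and 435 in APE1-KO stood beyond 0.25. In APE1-KO that is a smaller share than the 3 of 57 members at that level.

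**Figure D1:**
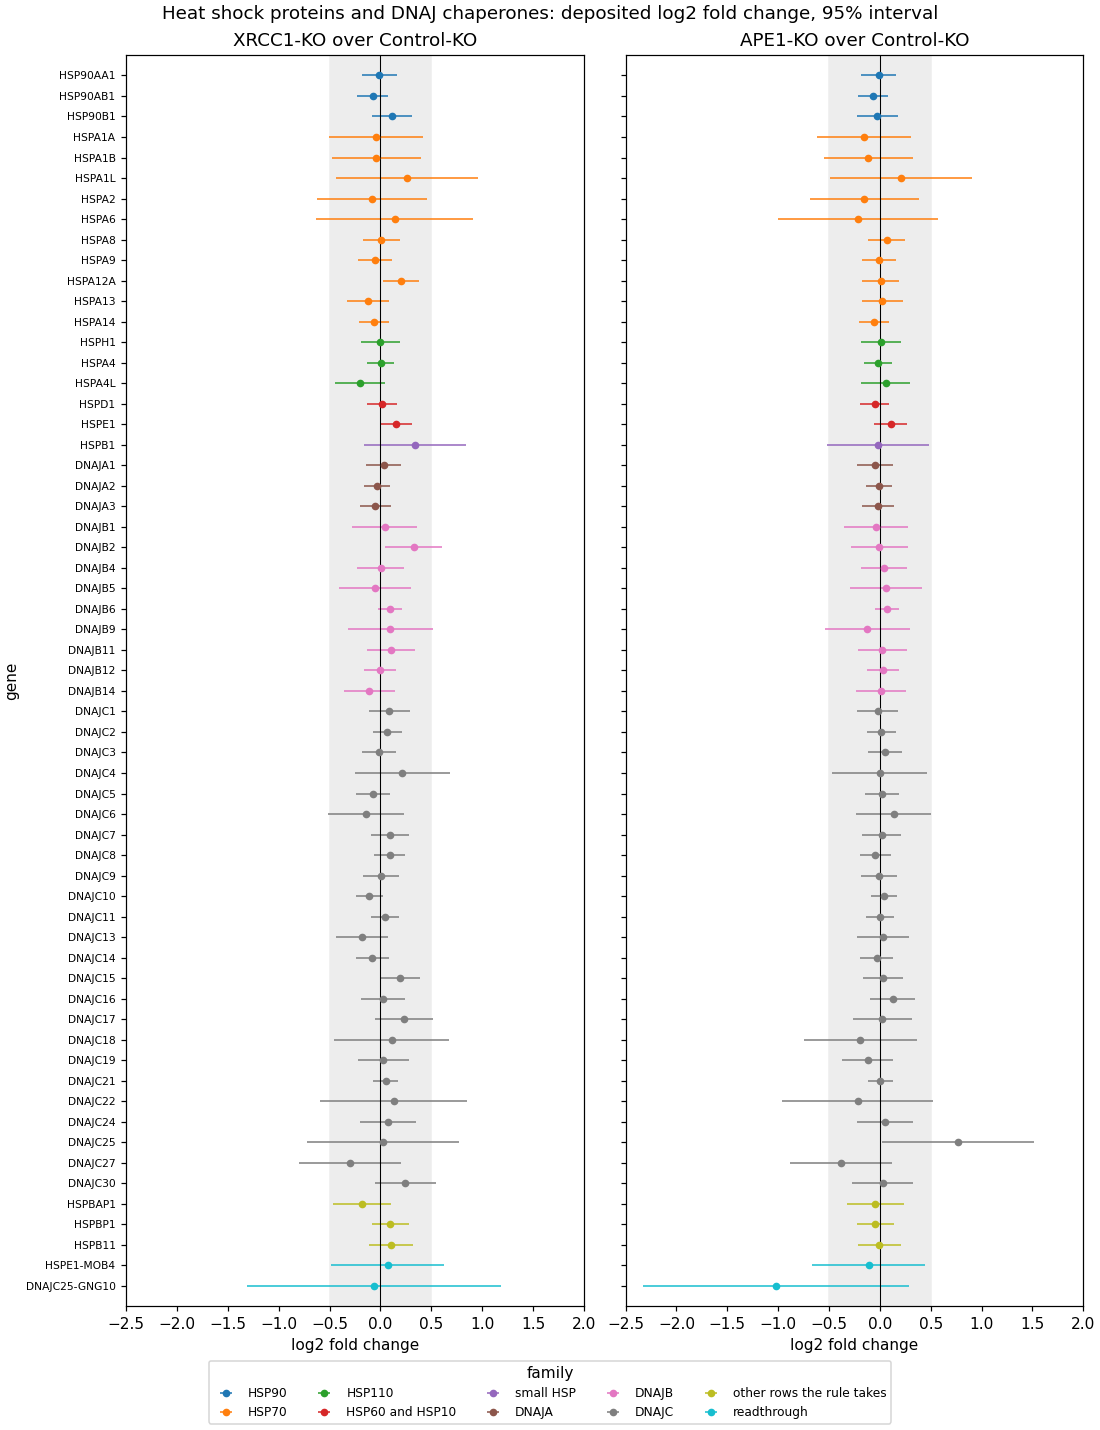
Deposited log2 fold change of each of the 60 members (points, x axis) with its 95% interval (lines), XRCC1-KO over Control-KO at the left and APE1-KO over Control-KO at the right, with genes grouped by family from top to bottom. The grey band spans 0.5 on either side of 0; intervals of 58 members in XRCC1-KO and 59 in APE1-KO include 0.

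The level per transcript length spans a wide range among the members. Mean log2 CPM per kb of the annotated principal transcript was 10.6 for HSPA8, the constitutive HSP70, followed by 9.91 for HSP90AB1 and 9.64 for HSP90AA1. HSPB1 (8.92), HSPD1 (8.85) and HSP90B1 (8.78) came next on the same per-length scale. HSPA8 stood at the 99.8th percentile of all genes with a length. The inducible HSP70 pair HSPA1A and HSPA1B, at 7.5 and 7.0 log2 CPM per kb, lay within the highest 11 of the 60 and the labels name no stress treatment. Among DNAJ members, DNAJA1 (7.18 log2 CPM per kb), DNAJB1 (6.59) and DNAJB6 led. HSPA6, a strictly inducible HSP70, was near the bottom at -0.38 log2 CPM per kb, with HSPA2 (-0.80) and HSPA1L (-0.81), both known for expression in the testis, and DNAJC22 at -1.37. Annotated lengths limit this order: with the median length of all basic transcripts, HSP90B1 moved to rank 3 and DNAJC10, whose principal transcript is listed with 20129 bases, to rank 11, against ranks 6 and 36. With those basic-transcript lengths HSPA1B stood at rank 13, against 11. The spread of a level between libraries is unknown, so neighbours in the order are not said to differ.

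**Figure D2:**
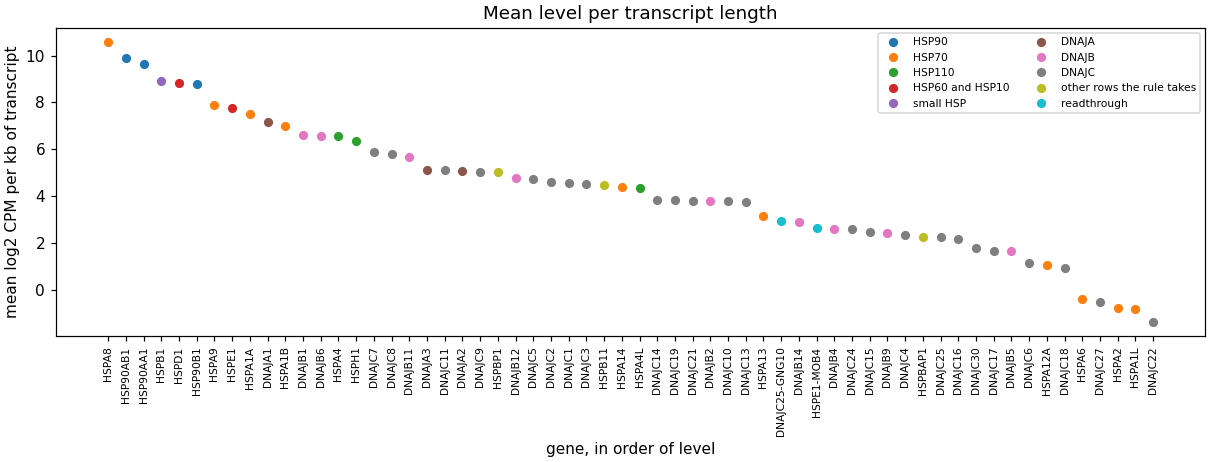
Mean log2 CPM per kb of transcript (y axis) of the 60 members in order of level (x axis), coloured by family; each point is a single deposited mean with no error. Members run from 10.6 for HSPA8 to -1.37 for DNAJC22, with HSP90, HSP60 and the constitutive HSP70 at the left and most DNAJC genes in the middle and right.

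The cytosolic HSP90 genes stood near 0 in both knockouts. HSP90AA1, the inducible isoform (hg19 chromosome 14, 102547075 to 102606036), stood at -0.01 in the authors' deposited table for XRCC1-KO (interval -0.18 to 0.16) and at -0.01 in the table for APE1-KO (interval -0.18 to 0.16). HSP90AB1, the constitutive isoform, stood at -0.08 (interval -0.23 to 0.07) and -0.06 (interval -0.21 to 0.08) in the authors' deposited XRCC1-KO and APE1-KO tables. The intervals of both genes lay within 0.25 of 0. HSP90B1, the isoform of the endoplasmic reticulum, stood at 0.11 (interval -0.09 to 0.31) in XRCC1-KO and -0.02 in APE1-KO, per the authors' deposited tables.

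Of the 10 HSP70 genes, 4 were above 0 in each knockout. HSPA8 stood at 0.01 in the authors' deposited table for XRCC1-KO (interval -0.17 to 0.19) and at 0.07 in the table for APE1-KO (interval -0.12 to 0.25). HSPA9, the mitochondrial HSP70 that pulls proteins through the inner membrane, stood at -0.05 and -0.01 in the authors' deposited XRCC1-KO and APE1-KO tables. HSPA1A (hg19 chromosome 6, 31783291 to 31785723), the main heat-inducible HSP70, stood at -0.04 (interval -0.51 to 0.42) in XRCC1-KO and at -0.16 (interval -0.62 to 0.31) in APE1-KO, per the authors' deposited tables. Its neighbour HSPA1B stood at -0.04 and -0.11 in the same deposited tables. Of the 31-base words of HSPA1A transcripts in GENCODE 29, 73.6% also occur in HSPA1B, so the split of reads between the pair is uncertain. For HSPA6, with 56.7% of its words shared, mostly with HSPA7, the authors' deposited tables gave 0.14 in XRCC1-KO and -0.21 in APE1-KO, with an interval from -0.63 to 0.91 in XRCC1-KO.

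HSPA12A, a divergent HSP70 (hg19 chromosome 10, 118430703 to 118502085), stood at 0.20 in the authors' deposited table for XRCC1-KO (1.15-fold, interval 0.02 to 0.38, p = 0.0312, adjusted p = 0.76 by the F test with Benjamini-Hochberg adjustment), and at 0.01 in the table for APE1-KO. HSPA13, a microsomal HSP70, stood at -0.12 and 0.03 in the authors' deposited XRCC1-KO and APE1-KO tables. HSPA14, which works at the ribosome with DNAJC2, stood at -0.07 and -0.06 in those deposited tables. The little-expressed HSPA1L (0.26 and 0.21) and HSPA2 (-0.08 and -0.16 in the authors' deposited XRCC1-KO and APE1-KO tables) had wide intervals. In XRCC1-KO they ran from -0.43 to 0.96 for HSPA1L and from -0.62 to 0.46 for HSPA2, and changes within these bounds are not excluded.

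Exchange factors of the HSP110 group, the chaperonin and the small heat shock protein had fold changes from -0.20 to 0.34 in XRCC1-KO and from -0.05 to 0.11 in APE1-KO. HSPH1, the inducible HSP110, stood at 0.00 in the authors' deposited table for XRCC1-KO (interval -0.20 to 0.19) and at 0.01 in the table for APE1-KO. HSPA4, its constitutive relative, stood at 0.00 and -0.02 in the authors' deposited XRCC1-KO and APE1-KO tables. HSPA4L stood at -0.20 (interval -0.45 to 0.04, unadjusted F test p = 0.0996) in the authors' deposited table for XRCC1-KO and at 0.06 in the table for APE1-KO. HSPD1 stood at 0.01 and -0.05, and its cofactor HSPE1 at 0.15 (interval -0.01 to 0.31) and 0.11, in the authors' deposited XRCC1-KO and APE1-KO tables. HSPB1, the small heat shock protein HSP27 (hg19 chromosome 7, 75931861 to 75933612), had the highest log2 fold change of the members in XRCC1-KO, 0.34 or 1.27-fold in the authors' deposited table, with an interval from -0.16 to 0.84 (unadjusted F test p = 0.168). In APE1-KO it stood at -0.02 in the authors' deposited table. The rule also takes HSPBP1, an HSP70 exchange factor (0.10 and -0.04), HSPBAP1, a binding partner of HSPB1 (-0.18 and -0.04), and HSPB11, an intraflagellar transport protein (0.11 and 0.00 in the authors' deposited XRCC1-KO and APE1-KO tables).

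Of the 36 single J-domain genes, 24 were above 0 in XRCC1-KO and 20 in APE1-KO. DNAJB2 (hg19 chromosome 2, 220143989 to 220151622), a J-domain protein that hands clients to the proteasome, had the smallest p of all members in XRCC1-KO: 0.33 or 1.26-fold in the authors' deposited table (interval 0.05 to 0.61, p = 0.0247, adjusted p = 0.76, F test with Benjamini-Hochberg adjustment). In APE1-KO it stood at 0.00 in the authors' deposited table. DNAJC30, a mitochondrial protein linked to respiration, and DNAJC17, a nuclear protein linked to splicing, followed at 0.24 and 0.23 in the authors' deposited table for XRCC1-KO, and stood at 0.03 and 0.02 in the table for APE1-KO. At the low end of XRCC1-KO were DNAJC27, a Rab-like GTPase with a J domain, at -0.30, the endosomal DNAJC13 at -0.18 and the clathrin-uncoating auxilin DNAJC6 at -0.14 in the authors' deposited table. None of these 5 had an unadjusted p under 0.05.

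In APE1-KO, DNAJC25 (hg19 chromosome 9, 114393632 to 114432508) stood at 0.77 in the authors' deposited table, or 1.70-fold (interval 0.02 to 1.52, p = 0.0451, adjusted p = 1, F test with Benjamini-Hochberg adjustment). The readthrough DNAJC25-GNG10, which starts at nearly the same place (114393666 to 114432509), stood at -1.02 in the authors' deposited table for APE1-KO (interval -2.32 to 0.28). GNG10 itself, a G protein gamma subunit named for this pair after its value was seen, stood at 0.02 in the authors' deposited table for APE1-KO. Of the readthrough's 31-base words 96.2% also occur in other genes, and 14.7% of those of DNAJC25 occur in the readthrough. Most words of DNAJC25 occur in no other gene, but reads of the readthrough row cannot be cleanly assigned. Both rows have wide intervals, and their opposite values are uncertain. The mean log2 CPM of both was alike, at 3.42 for DNAJC25 and 3.49 for the readthrough. In XRCC1-KO they stood at 0.02 and -0.06 in the authors' deposited table. HSPE1-MOB4, the other readthrough, with 96.9% of its words shared, stood at 0.07 and -0.11 in the authors' deposited XRCC1-KO and APE1-KO tables. DNAJC27 stood at -0.38 and DNAJC22 at -0.22 at the low end of APE1-KO, with DNAJC6 (0.14) and DNAJC16 (0.13) at the high end, in the authors' deposited table.

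DNAJA1, DNAJB1 and DNAJB6, the J-domain genes with the highest level per length, stood at 0.03, 0.04 and 0.09 in the authors' deposited table for XRCC1-KO, and at -0.05, -0.04 and 0.07 in the table for APE1-KO. DNAJA1 and DNAJB1 are the main cytosolic partners of HSP70. DNAJB6 had one of the narrowest intervals, from -0.02 to 0.21 in XRCC1-KO. The other 24 DNAJ members ranged from -0.11 to 0.21 in XRCC1-KO (median 0.04, 15 above 0, smallest p 0.0603 by the deposited F test) and from -0.19 to 0.06 in APE1-KO (median 0.01, 13 above 0, smallest p 0.32).

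By compartment, the 8 mitochondrial members (HSPA9, HSPD1, HSPE1, DNAJA3, DNAJC11, DNAJC15, DNAJC19 and DNAJC30) had a median log2 fold change of 0.04 in XRCC1-KO, 6 of them above 0, and of 0.00 in APE1-KO, 3 above 0. DNAJC15, which sits in the inner membrane beside the import motor, had the smallest p of these, at 0.19 in the authors' deposited table for XRCC1-KO (interval -0.01 to 0.39, unadjusted F test p = 0.0603). The 10 members of the endoplasmic reticulum had a median of -0.01 in XRCC1-KO and 0.02 in APE1-KO. DNAJC10, a reductase of that compartment, stood at -0.11 in the authors' deposited table for XRCC1-KO (interval -0.24 to 0.02), and DNAJB9, induced when unfolded proteins gather there, at 0.10 and -0.12 in the authors' deposited XRCC1-KO and APE1-KO tables.

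Heat-inducible members lay on both sides of 0. Of 14 listed genes 13 were measured, HSPB8 being the exception. The list also holds HSPA8 and HSP90AB1, called constitutive above, so the counts below are not of inducible genes alone. Their log2 fold changes ran from -0.20 (HSPA4L) to 0.34 (HSPB1) in XRCC1-KO, with a median of 0.01 and 7 of 13 above 0. In APE1-KO they ran from -0.21 (HSPA6) to 0.11 (HSPE1), with a median of -0.04 and 4 of 13 above 0. The interval lay within 0.5 of 0 for 10 of the 13 in XRCC1-KO, against 68.2% of all genes, and for 9 in APE1-KO, against 73.5%. None had an unadjusted p under 0.05 in either knockout, against 5.96% and 1.45% of all genes. For the 7 members with a 3-unit heat shock element in their promoter window the medians were 0.01 in XRCC1-KO and -0.05 in APE1-KO, with values from -0.08 to 0.14 and from -0.21 to 0.07. The 48 members with a window and no such match had medians of 0.01 and 0.00. Among these 48 are HSPA1A, HSPA1B, HSPB1, DNAJB1, HSPH1 and HSPE1 of the heat-inducible list. Of the 7 with the match, all but DNAJB6 are on that list. The match therefore stood mostly in listed heat-inducible members but missed others of them.

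Some heat-inducible members had larger recovered standard errors than other genes of like level. The standard error of the log2 fold change was 0.235 for HSPB1, 0.218 for HSPA1A and 0.207 for HSPA1B. Genes within 0.5 of the mean log2 CPM of HSPB1 had a median standard error of 0.0895, and HSPB1 stood at the 98.5th percentile of these 324 genes. HSPA1A was at the 96.8th of 317 genes and HSPA1B at the 97.4th of 467 genes chosen in the same way, 2.41 times and 2.35 times the medians of those genes. DNAJB1, at 0.149, was at the 93.7th percentile of 761 genes. HSP90AB1 (5.26th percentile), HSPD1 (10.8th) and HSP90AA1 (16.1st) lay lower among 38, 93 and 31 such genes. The other listed heat-inducible members at a mean log2 CPM of 1 or more lay between. HSPE1 was at the 27.2nd percentile of its neighbours, HSPA8 at the 33.3rd and DNAJA1 at the 40.8th. HSPH1 was at the 50.9th and HSPA4L at the 79.4th. Of 57 members whose mean log2 CPM was 1 or more, 5 were above the 95th percentile of their neighbours: HSPB1, HSPA1A, HSPA1B, DNAJC25 and DNAJC25-GNG10. Most members had a smaller error than the median of such neighbours, with 21 of 57 above it. HSPA1A, HSPA1B and the readthrough are among the members that share most of their words with another gene. Whether these errors reflect spread between libraries or the assignment of shared reads was not tested. At these errors the intervals of HSPB1 and HSPA1A reach beyond 0.5 on a single side in each knockout. For HSPB1 a 1.41-fold rise is not excluded in XRCC1-KO (-0.16 to 0.84), nor such a fall in APE1-KO (-0.52 to 0.48). For HSPA1A a 1.41-fold fall is not excluded in XRCC1-KO (-0.51 to 0.42) or APE1-KO (-0.62 to 0.31). A rise of that size in HSPA1A lies outside both intervals.

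**Figure D3:**
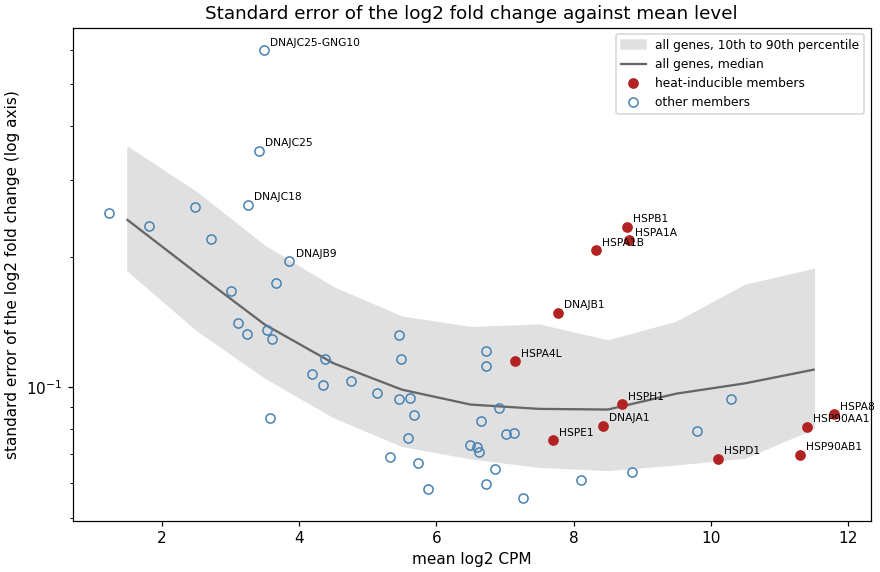
Standard error of the log2 fold change (y axis, log scale, root mean square of both comparisons) against mean log2 CPM (x axis) for the 57 members whose mean log2 CPM was 1 or more. The grey line and band give the median and the 10th to 90th percentile of all genes in bins of 1 log2 CPM. Of the heat-inducible members HSPB1 (0.235), HSPA1A (0.218), HSPA1B (0.207) and DNAJB1 (0.149) stand above the band. So do DNAJC25-GNG10 (0.599), DNAJC25 (0.352) and DNAJC18 (0.264) of the other members. HSP90AB1 lies below the band and HSPD1 near its lower edge.

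Other genes of the pathway likewise had no member past an adjusted p of 0.05 in either knockout. Of 79 genes in 8 lists, all measured, 2 had an unadjusted p under 0.05 in XRCC1-KO, both above 0 (2.53%, against 5.96% of all genes), and 1 in APE1-KO, also above 0 (1.27%, against 1.45%). SIL1, the exchange factor for the HSP70 of the endoplasmic reticulum, stood at 0.25 in the authors' deposited table for XRCC1-KO (interval 0.07 to 0.42, p = 0.0105 by the deposited F test) and at 0.05 in the table for APE1-KO. STUB1, a ubiquitin ligase that marks clients held by HSP70 and HSP90, stood at 0.24 (interval 0.00 to 0.47, F test p = 0.0462) and 0.02 in the authors' deposited XRCC1-KO and APE1-KO tables. PFDN1, a prefoldin subunit, stood at 0.11 and 0.19 (F test p = 0.0245 in APE1-KO) in the authors' deposited XRCC1-KO and APE1-KO tables.

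HSF1 was at 0.00 in the authors' deposited table for XRCC1-KO (interval -0.21 to 0.22) and at -0.06 in the table for APE1-KO (interval -0.28 to 0.16). HSF2 stood at -0.07 and 0.04, HSF4 at 0.27 and 0.26, and the HSF-binding HSBP1 at 0.10 and 0.03, in the authors' deposited XRCC1-KO and APE1-KO tables. The 14 heat-inducible genes with other symbols had a median of 0.06 in XRCC1-KO, 12 of them above 0, and of -0.04 in APE1-KO, 5 above 0; for all genes 49.7% and 49.5% were above 0. With the trend of transcript length and GC content removed their median in XRCC1-KO was 0.00. BAG3, an HSP70 exchange factor strongly induced by heat, stood at 0.01 (interval -0.17 to 0.18) and -0.04 (interval -0.22 to 0.13) in the authors' deposited XRCC1-KO and APE1-KO tables. CRYAB, a small heat shock protein at a mean log2 CPM of -0.31, stood at 0.58 and 0.43 with intervals wider than 1 in those deposited tables, and CACYBP, a ubiquitin ligase adaptor, at 0.09 and 0.11.

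Medians of the remaining lists were small. HSP90 co-chaperones (19 genes) stood at 0.06 in XRCC1-KO and -0.01 in APE1-KO, HSP70 co-chaperones (14 genes) at 0.00 and -0.02, and the TRiC chaperonin with prefoldin (14 genes) at 0.04 and -0.02. Partners and proteases of mitochondria (11 genes) had medians of -0.02 in XRCC1-KO and 0.02 in APE1-KO, ER folding factors (8 genes) 0.06 and 0.02, and J-domain proteins with other symbols (4 genes) 0.05 and 0.05. The smallest p values of these lists where none was under 0.05 belonged in XRCC1-KO to PPID (0.14), PFDN4 (0.17), CLPP (0.19) and HSCB (0.23), given as log2 fold changes of the authors' deposited table. In APE1-KO those given here belonged to BAG1 (-0.14), AFG3L2 (-0.13) and GAK (-0.09), also log2 fold changes of the authors' deposited table.

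In XRCC1-KO the fold changes of the members ran lower at longer transcripts, as did those of all genes. The 20 members with the shortest principal transcripts (890 to 2306 bases) had a median of 0.08, 17 of them above 0. The 20 longest (3379 to 20129 bases) had a median of -0.03, 7 of them above 0. In APE1-KO the same 20 shortest and 20 longest stood at -0.01 (8 above 0) and 0.02 (14 above 0). In XRCC1-KO, Spearman's rho between fold change and length was -0.393 across the 60 members, and across 11175 nuclear genes -0.454; genes are not independent replicates. Across the members the same measure was 0.241 in APE1-KO. HSPB1 and HSPE1 have principal transcripts of 909 and 950 bases, for which the trend alone runs at 0.19 and 0.12 in XRCC1-KO. With the trend of length and GC removed, the members' median in XRCC1-KO was 0.04, and the values of both HSPB1 (0.15) and HSPE1 (0.03) were nearer to 0. DNAJB2 then stood at 0.30. HSPA12A (0.28), DNAJC15 (0.30) and DNAJC21 (0.13), whose long annotated transcripts put them where the trend runs below 0, had larger values than before. These 4, or 6.67% of the members, had an unadjusted p under 0.05 from the recovered errors, against 4.17% of 12838 genes in the same fit. With lengths and GC from all basic transcripts it was 3 members, all but DNAJC21, against 4.45% of genes. No member passed with adjustment over all genes. Whether a difference between libraries gave rise to the length trend was not tested.

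**Figure D4:**
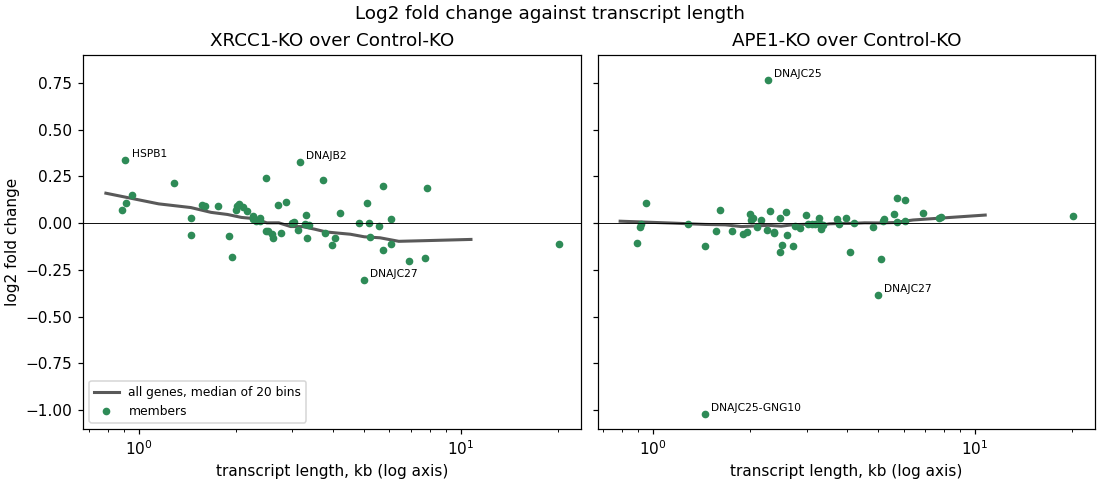
Log2 fold change (y axis) against the length of the principal transcript in kb (x axis, log scale) for the 57 members whose mean log2 CPM was 1 or more (green points), XRCC1-KO over Control-KO at the left and APE1-KO over Control-KO at the right. The grey line joins the medians of 20 length bins of all genes, which in XRCC1-KO run from 0.16 in the shortest bin to -0.09 in the longest, and the members scatter around it.

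XRCC1-KO and APE1-KO were set against each other by the difference of the deposited log2 fold changes, in which the shared Control-KO libraries cancel. No member passed an adjusted p of 0.05, against 0.00766% of 13051 genes, and none an unadjusted p of 0.05, against 0.743%. With the length and GC trend removed 2 members, HSPA12A and DNAJC15, had an unadjusted p under 0.05 in the difference, or 3.33%, against 0.623% of genes, and the same 2 with basic-transcript lengths, against 0.647%. The median difference of the members was 0.05, with 37 of 60 above 0 (61.7%, against 51.5% of all genes). The test takes no covariance between the comparisons, and its errors are wider than those of a direct contrast. With the error of a direct contrast of equal groups, 4 members had an unadjusted p under 0.05, or 6.67%, against 5.48% of all genes, and none passed with adjustment (smallest adjusted p 0.73). These 4 were DNAJB2 (a difference of 0.33, XRCC1-KO minus APE1-KO), HSPA12A (0.19), DNAJC10 (-0.15) and HSPA4L (-0.26). The largest differences of either sign belonged to DNAJC25-GNG10 (0.96, interval -0.85 to 2.76) and DNAJC25 (-0.74, interval -1.80 to 0.31), followed among DNAJ members by DNAJC22 at 0.34 and DNAJC6 at -0.28. HSPB1 differed by 0.36 with an interval from -0.35 to 1.07. For 37 of 60 members the interval of the difference, with the wider errors, lay within 0.5 of 0 (61.7%, against 51.6% of all genes). Among them were all 3 HSP90 genes, HSPA8, HSPD1 and DNAJA1. Of the 11317 genes at a mean log2 CPM of at least 1, 6739 had such an interval.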

How the data were processed

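RNA of 9 libraries was sequenced; the submitters' processing notes list Trim Galore, Salmon 1.4.0 and edgeR, with hg19 as the build, and no settings. The deposited tables hold, per the file headers, a log2 fold change of each knockout over Control-KO, a mean log2 CPM per gene, an F score, a p-value and a false discovery rate, all computed by the authors. They also deposited −log10 p. Depth per library is unknown, and fold changes of genes with few reads may be shrunk by the authors' fit.

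From these, the standard error was computed as the absolute log2 fold change over the root of F (from the other comparison where F was under 0.01). The 95% intervals used Student's t at the median degrees of freedom implied by F and p (15.24). That median is above the 9 libraries, so a gene's error and p-value do not rest on its own libraries alone. The difference between knockouts used both errors with no covariance, with Benjamini-Hochberg adjustment over all genes. On simulated data with a shared control this test was stricter than its nominal level. Recomputed false discovery rates were within 0.00223 of the deposited ones. Length and GC trends were robust regressions on natural splines (5 degrees of freedom) of principal GENCODE 29 transcripts, over 11175 nuclear genes. Words of 31 bases were compared between transcripts of different genes. Python 3.11.15, scipy 1.17.1 and statsmodels 0.14.6 were used.

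The members and lists were chosen with earlier results of these data known. Named were all HSP members; DNAJ members with an unadjusted p under 0.05, among the 3 highest or 3 lowest of a comparison, or among the 3 highest levels; and list genes with an unadjusted p under 0.05 or, failing that, the smallest p of a list. A gene this rule names for APE1-KO is not reported here. DNAJB9, DNAJC10, DNAJC15, DNAJC21, BAG3, HSF1, HSF2, GNG10 and the markers are named beside that rule, with their values known. Alternatives were genes at a mean log2 CPM of at least 1, Benjamini-Yekutieli adjustment, another centring, the length and GC trend removed, other sets of members and another error of the difference.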

Additional observations from a re-analysis of the deposited data

How the results depend on the processing

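No alternative gave a member with an adjusted p under 0.05, in any of the 3 comparisons. Medians of the members ran from 0.0136 to 0.0389 in XRCC1-KO, from -0.0047 to 0.0054 in APE1-KO and from 0.0419 to 0.0494 for the difference between the knockouts. Members with an unadjusted p under 0.05 numbered 4 instead of 2 in XRCC1-KO with the length and GC trend removed (4.17% of all genes in that fit), and 3 with lengths from all basic transcripts (4.45%). In the difference they numbered 2 instead of 0 with that trend removed (0.623% of all genes), 2 with lengths from all basic transcripts (0.647%), and 4 with the error of a direct contrast; the cause was not tested. The limit of 25% shared 31-base words, the basic-transcript lengths and the direct error for adjusted calls were chosen after seeing the data. No paired analysis was possible because values per library were not analysed here, and for the same reason leaving out each replicate and the replicate block were not run. Depth per library is unknown, so no limit by depth can be given.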
